A study of Mus musculus with 6 samples.

Results

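The nuclear genes for mitochondrial ribosomal proteins were taken as the rows of the count table whose symbol is Mrpl or Mrps followed by a number and at most 1 letter from a to d. The rule found 78 of the 55401 gene rows, and all 78 passed the filter on low counts, among 17573 genes that were tested. Of these, 51 were assigned to the large subunit and 26 to the small subunit. Mrps36, which carries the name but is better known as a subunit of the 2-oxoglutarate dehydrogenase complex, was left without a subunit. Another 6 rows with Mrp symbols were pseudogenes of Mrpl23, Mrpl27, Mrpl48 and Mrps36 and fell outside the rule, and counts of those 4 genes may be divided with such copies.

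The measurements were 4sU-seq counts, that is, sequencing of RNA that took up the uridine analogue 4-thiouridine and was pulled down on streptavidin beads, so newly made RNA and precursors weigh more than in total RNA. The cells, 129/Ola mouse embryonic stem cells labelled ZFP207AID, make the zinc finger protein ZFP207 with an auxin-inducible degron, a tag that marks it for the proteasome once indole-3-acetic acid (IAA), an auxin, is added. Of the 6 libraries, 3 came from cells without IAA (control; time label 0 h, genotype label WT) and 3 from cells after 5 h of IAA (depleted; genotype label naming ZFP207 degradation), all in serum medium with leukemia inhibitory factor. The series text speaks of independent replicates, with no word on clones, and no degron-free cells with IAA were analysed here, so IAA and loss of ZFP207 cannot be told apart. The controls were taken to be untreated degron cells; were they untagged cells, each comparison would also be between lines. In such bulk libraries fewer cells of a type and less RNA per cell cannot be told apart either.

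Mitochondria keep a ribosome of their own, which makes the few membrane proteins of the respiratory chain that mitochondrial DNA encodes. Its rRNAs come from mitochondrial DNA, whereas each of its proteins is encoded in the nucleus, translated in the cytosol and imported. One class of these proteins descends from bacterial ribosomal proteins and another class has no bacterial counterpart. Many of their promoters lack a TATA box and hold sites for the nuclear respiratory factors NRF-1 and NRF-2 (the ETS protein GABP) or for YY1.

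The 6 members that fell in the comparison of libraries matched by replicate number are shown first by the sequence around their starts. Each sequence runs 5′ to 3′ on the gene's strand from 150 bases before the RefSeq start to 30 after it, on build GRCm38.p6, and capitals mark matches on either strand to CCGGAAG (ETS), GCGCANGCG (NRF-1) or AAGATGGC (YY1).
Mrpl10, chr11:97041432-97041611 (plus strand): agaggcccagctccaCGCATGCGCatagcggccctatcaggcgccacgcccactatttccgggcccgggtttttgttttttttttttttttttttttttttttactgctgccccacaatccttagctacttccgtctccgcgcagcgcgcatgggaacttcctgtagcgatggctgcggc
Mrpl24, chr3:87919394-87919573 (plus strand): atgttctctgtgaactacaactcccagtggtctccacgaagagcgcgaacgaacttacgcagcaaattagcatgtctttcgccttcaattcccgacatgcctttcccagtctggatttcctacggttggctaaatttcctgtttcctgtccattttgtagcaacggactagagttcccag
Mrpl33, chr5:31613801-31613980 (plus strand): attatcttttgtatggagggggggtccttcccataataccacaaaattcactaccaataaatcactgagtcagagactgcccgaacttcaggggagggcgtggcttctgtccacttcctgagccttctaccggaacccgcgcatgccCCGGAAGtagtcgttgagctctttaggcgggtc
Mrpl45, chr11:97315566-97315745 (plus strand): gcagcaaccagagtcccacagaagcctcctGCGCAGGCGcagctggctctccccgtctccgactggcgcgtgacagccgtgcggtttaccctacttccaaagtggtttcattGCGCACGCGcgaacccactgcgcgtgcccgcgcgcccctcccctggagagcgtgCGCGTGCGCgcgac
Mrps10, chr17:47369047-47369226 (plus strand): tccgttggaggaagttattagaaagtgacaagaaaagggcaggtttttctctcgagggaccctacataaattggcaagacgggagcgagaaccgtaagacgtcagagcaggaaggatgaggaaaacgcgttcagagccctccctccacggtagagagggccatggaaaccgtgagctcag
Mrps27, chr13:99344636-99344815 (plus strand): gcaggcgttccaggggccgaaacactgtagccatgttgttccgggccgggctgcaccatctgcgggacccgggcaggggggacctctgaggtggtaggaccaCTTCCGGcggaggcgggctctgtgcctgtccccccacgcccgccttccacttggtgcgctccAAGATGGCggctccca
Mrps27 held an ETS match on the opposite strand beginning at -48 and a YY1 match at 15, counted from the start as 0. Mrpl33 held an ETS match beginning at -3. Mrpl45 held 3 NRF-1 matches, at -120, at -38 and, on the opposite strand, at 17, and Mrpl10 held 1, on the opposite strand at -135. The windows of Mrpl24 and Mrps10 held none of these letters, and neither did that of Mrps25, the member that rose. For Mrpl24, Mrpl45 and Mrps10 the start used (87919544, 97315716 and 47369197) lies inside the RefSeq interval of the gene. Those intervals begin at 87918131, 97314923 and 47368887, outside the windows shown, so a lack of matches holds only for the windows. The start used for Mrps27 (99344786) also lies inside its interval, which begins at 99344767, within the window shown. No motif was in more than 2 of the 6 genes that fell.

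Levels are TMM CPM, meaning counts relative to a normalised library size, and fold changes are given as depleted over control on the log2 scale. They compare libraries for 1 gene and not genes with each other, since counts also grow with gene length. A gene was called at a Benjamini-Hochberg adjusted p under 0.05 over all genes tested, in edgeR's quasi-likelihood test. The unpaired fit used the groups alone and the paired fit also held the replicate number as a block, because libraries with the same number deviated together. Where the change of a member is given as a plain fold, it comes from the unpaired fit.

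Few mitochondrial ribosomal protein genes were called, and their fold changes centred near 0. In the unpaired fit 0 of 78 were called lower, where 0.78% of all tested genes were, and 0 were called higher, where 0.0114% were. At an unadjusted p under 0.05 that fit had 6 members lower (7.69%) and 0 higher, against 8.21% and 2.68% of all genes. In the paired fit 6 members fell, Mrpl10, Mrpl24, Mrpl33, Mrpl45, Mrps10 and Mrps27, which is 7.69% of the members beside 7.9% of all genes. One member rose there, Mrps25, which is 1.28% beside 4.96%. DESeq2 without the block called 5 lower and 0 higher (background 3.29% and 0.353%), and with the block 6 lower and 1 higher (background 7.97% and 6.47%). The share of members that fell was thus near the background of the paired fit over genes of all lengths, and nothing particular to the family is read from it.

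Counted by library, without a model, all 3 depleted libraries lay below all 3 controls for 7 members (8.97%), where 11.8% of all genes did so. They lay above for 2 members (2.56%), Mrpl13 and Mrps6, where 6.94% did. Within pairs of equal number, 17 members were lower in every pair and 17 were higher in every pair (21.8% each), beside 24.1% and 24.2% of all genes.

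**Figure D1:**
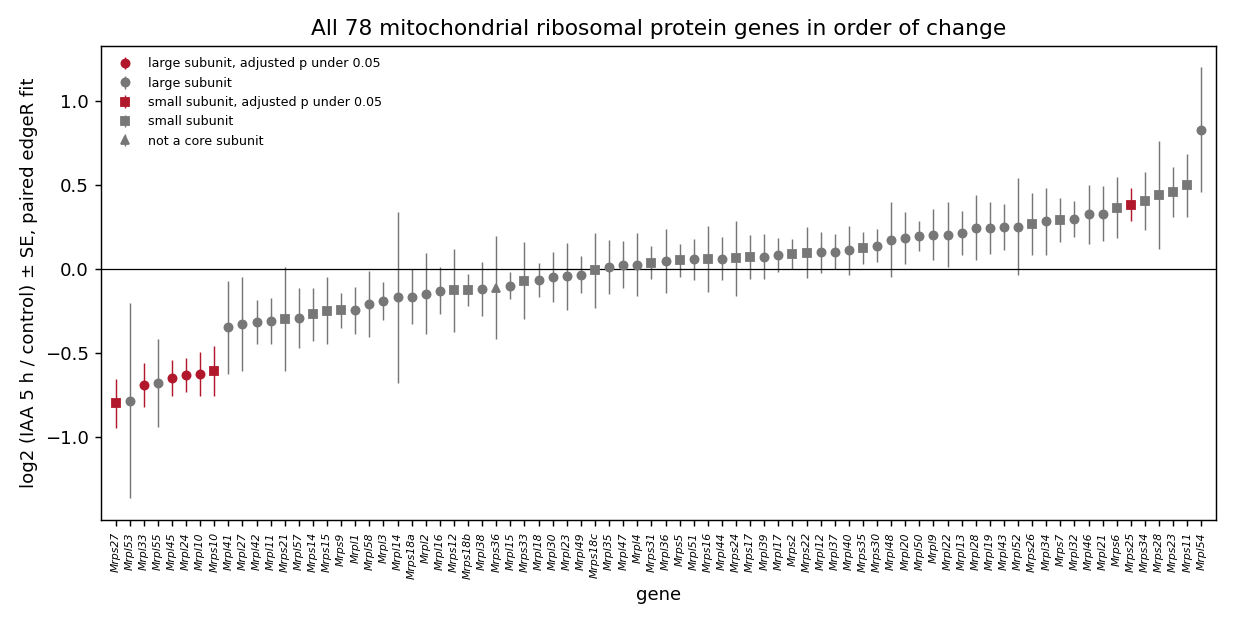
Log2 fold change (depleted over control, paired edgeR fit, bars 1 SE) of the 78 mitochondrial ribosomal protein genes, ordered by value along the horizontal axis. Marker shape gives the subunit, and red marks an adjusted p under 0.05, with the other genes in grey. Most values lie within 0.5 of 0. At the low end 8 genes lie between -0.80 and -0.61, the 6 that fell and, with wider errors, Mrpl53 and Mrpl55, which were not called.

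Among large subunit proteins, 4 fell. Mrpl45 encodes the protein that lines the end of the exit tunnel and anchors the ribosome to the inner membrane. Its level, with libraries always in the order of replicates 1, 2 and 3, was 77.0, 62.2 and 69.8 CPM without IAA and 44.3, 44.4 and 44.4 CPM with it. The depleted libraries were nearly equal and all lay under the lowest control. The means were 69.7 ± 7.41 and 44.4 ± 0.0444 CPM (SD, n = 3 each), a 1.57-fold lower level, with a paired log2 fold change of -0.65 ± 0.11 (SE, adjusted p = 0.00212) and an adjusted p of 0.109 unpaired.

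Mrpl24 encodes the counterpart of bacterial L24, a protein by the tunnel exit that binds rRNA early in assembly. It measured 68.6, 72.3 and 75.3 CPM in the controls and 48.8, 43.2 and 47.9 CPM after IAA. The groups were far apart relative to their spread, at 72.1 ± 3.34 and 46.6 ± 3.03 CPM (SD, n = 3 each). The level was 1.55-fold lower, with a paired log2 fold change of -0.63 ± 0.10 (SE, adjusted p = 0.002) and an unpaired adjusted p of 0.108. The last 850 bases of its interval overlap Rrnad1, which was not called (paired log2 -0.14, adjusted p = 0.512).

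Mrpl10 encodes the base of the stalk to which the copies of the L7/L12 protein attach and where translation factors dock. Control libraries held 38.2, 35.0 and 37.7 CPM and depleted libraries 24.6, 21.5 and 26.2 CPM, with a gap between the groups. The paired log2 fold change was -0.62 ± 0.13 (SE, adjusted p = 0.00901). In the unpaired fit the level was 1.53-fold lower, with an adjusted p of 0.182. Mrpl12, the L7/L12 protein that sits on this base, measured 48.4, 25.3 and 44.6 CPM in controls and 45.8, 28.9 and 51.2 CPM after IAA, so its groups overlapped throughout (paired log2 0.10 ± 0.12, SE, adjusted p = 0.655). Mrpl12 was picked for its place beside Mrpl10, after its values were seen.

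Mrpl33 encodes a small protein of bacterial descent that lies near the tRNA exit site in bacteria. It was at 37.7, 37.1 and 39.6 CPM in controls and 21.4, 23.9 and 26.0 CPM in depleted libraries. No depleted library came near the control values, which differed from each other by little (38.1 ± 1.35 against 23.7 ± 2.31 CPM, SD, n = 3 each). The level was 1.61-fold lower, with a paired log2 fold change of -0.69 ± 0.13 (SE, adjusted p = 0.00519) and an unpaired adjusted p of 0.133. RefSeq lists a second gene model, Gm38424, over the same interval, and it is no row of the table.

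Among small subunit proteins, 2 fell and 1 rose. Mrps27 encodes a protein of pentatricopeptide repeats with no bacterial counterpart. It measured 31.8, 38.0 and 38.9 CPM in controls and 20.0, 24.0 and 18.5 CPM after IAA. The highest depleted value was well under the lowest control value. Its mean went from 36.2 ± 3.90 to 20.8 ± 2.86 CPM (SD, n = 3 each), 1.74-fold lower, the lowest unpaired fold change of all members, with a paired log2 fold change of -0.80 ± 0.15 (SE, adjusted p = 0.00363) and an unpaired adjusted p of 0.117. At 70.8 kb it is also the longest of the genes that fell.

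Mrps10 encodes the counterpart of bacterial S10, a protein in the head of the small subunit. Its controls were spread, at 48.8, 35.5 and 43.0 CPM, above depleted values of 24.9, 29.2 and 29.2 CPM. Its groups did not overlap, yet replicate 2 showed a small drop next to the other pairs. The paired log2 fold change was -0.61 ± 0.15 (SE, adjusted p = 0.0179) and the unpaired adjusted p was 0.236. Its call was lost without pair 1 (adjusted p = 0.141) or pair 3 (0.0752), and DESeq2 without the block gave 0.0795.

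Mrps25, a small subunit protein without a bacterial counterpart, was the member that rose. It was at 57.7, 86.0 and 55.1 CPM in controls and 67.9, 111 and 81.2 CPM after IAA. Each depleted library was above the control of the same number, and both libraries numbered 2 were the highest of their group. The groups overlapped because control replicate 2 lay above depleted replicates 1 and 3. The paired log2 fold change was 0.38 ± 0.10 (SE, adjusted p = 0.0222). In the unpaired fit the level was 1.31-fold higher, with an adjusted p of 0.616. The call was lost without pair 2 (0.0723) or pair 3 (0.177). Over 3547 bases its interval overlaps that of Nr2c2, which read 175, 312 and 182 CPM in controls and 165, 357 and 194 CPM after IAA, also highest in both libraries numbered 2. Nr2c2 was not called (paired log2 0.07, adjusted p = 0.638), and a share of its reads in the Mrps25 counts was not tested.

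**Figure D2:**
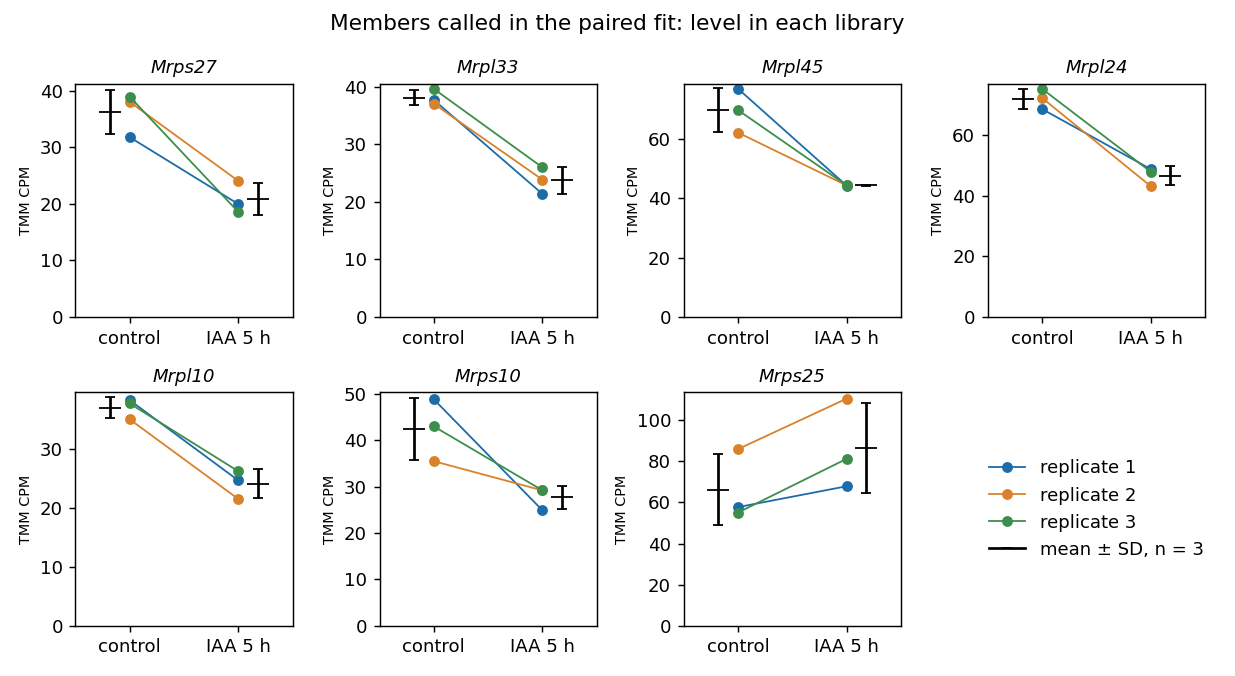
Level in TMM CPM of the 7 members called in the paired edgeR fit, in each control library and each library after 5 h of IAA; lines join libraries of the same replicate number and black bars give mean ± SD (n = 3). In 6 genes all depleted values lie below all control values, and in Mrps25 each line rises while the groups overlap.

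The summed level of the 6 genes that fell was 302, 280 and 304 CPM in controls and 184, 186 and 192 CPM in depleted libraries; since the same contrast chose them, this is a description only. Their fold changes were below 0 in each alternative run, between -0.91 and -0.42. They lie on 5 chromosomes: Mrpl10 (chr11:97041582-97049213) and Mrpl45 (chr11:97314923-97329920) are 266 kb apart, and 0 of the 5 tested genes between them were called in the paired fit. Mrpl24 lies at chr3:87918131-87923450, Mrpl33 at chr5:31613951-31622644, Mrps10 at chr17:47368887-47381418 and Mrps27 at chr13:99344767-99415562. Mrps25 lies at chr6:92169512-92184023.

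At the ends of the order stood genes that were not called. Mrpl55, a large subunit protein, measured 12.3, 5.92 and 10.9 CPM in controls and 6.25, 5.38 and 5.89 CPM after IAA, and its control replicate 2 lay among the depleted values (paired log2 -0.68 ± 0.26, SE, adjusted p = 0.11). Mrpl53, a protein near the stalk of the large subunit, rested on 10 to 90 reads a library and on 1 library in particular, depleted replicate 3 at 0.677 CPM, where the others ran from 2.11 to 4.87 CPM. Its unpaired log2 fold change of -0.73 was 0.03 in the paired fit without pair 3. Mrpl54, of the large subunit and with 33 to 123 reads, had the highest fold change (0.76 ± 0.41 unpaired, SE, adjusted p = 0.565; paired adjusted p = 0.166). Its controls of 4.49, 1.88 and 2.55 CPM overlapped depleted values of 5.18, 5.61 and 4.33 CPM.

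In the small subunit Mrps23 was at 23.9, 14.1 and 21.2 CPM in controls and 29.8, 20.4 and 30.6 CPM after IAA, higher in each pair (paired log2 0.46 ± 0.15, SE, adjusted p = 0.0613). Mrps11, the counterpart of bacterial S11 in the platform of the subunit, was at 16.3, 7.40 and 14.5 CPM and then 22.6, 12.9 and 17.1 CPM (0.50 ± 0.19, adjusted p = 0.1). In both genes the libraries numbered 2 were the lowest of their group. The groups overlapped because depleted replicate 2 lay under control replicates 1 and 3, while each pair moved up. The members with the most reads moved little: Mrpl15 was at 185 ± 16.5 and 172 ± 6.83 CPM, Mrps2 at 167 ± 3.93 and 179 ± 28.8 CPM, and Mrpl50 at 94.2 ± 5.09 and 109 ± 16.2 CPM (SD, n = 3 each, none called).

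The median unpaired log2 fold change was 0.05 over the 78 members and 0.02 over all tested genes, and 44 members (56.4%) against 52.3% of all genes were above 0. By pair the members' medians were -0.04, 0.08 and 0.03, with an SD of 0.057 that exceeds their mean. Leaving out control replicate 2 gave a median of -0.05. It was -0.01 with depleted replicate 3 left out and -0.005 with depleted replicate 1 left out, so its sign rested on single libraries. Large subunit genes had a median of 0.05 with 4 paired calls lower and 0 higher, and small subunit genes 0.05 with 2 lower and 1 higher. The 45 members assigned to bacterial families had 0.04, with 4 lower, and the 31 assigned to the other class 0.08, with 2 lower and 1 higher. That other class included Mrps18a and Mrps18b, although Mrps18c was placed in a bacterial family, so it is not strictly free of bacterial counterparts. Mrpl55 and Mrps36 were left out of both classes. The paired fit called 7.9% of all tested genes lower and 4.96% higher, and nothing particular to a subunit or class is read from these counts. No test was made between these groups.

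The 90 cytoplasmic ribosomal protein genes that were tested had a median of 0.19 with 86 above 0, and in the paired fit 0 fell and 7 rose, beside 7.9% and 4.96% of all genes. The mitochondrial set thus had 44 of 78 above 0 where the cytoplasmic set had 86 of 90. Of all tested genes 52.3% were above 0, and of those spanning under 10 kb 63.2%. The sets were not matched for gene length, and the difference between them was not tested. The cytoplasmic ribosome makes the mitochondrial ribosomal proteins before import, and its own protein genes were chosen here as a set of like function.

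Gene length was looked at beside these values. Members spanned 0.825 kb (Mrpl53) to 122 kb (Mrps28), with a median of 7.69 kb where the tested genes with a known span had 19.0 kb. Among all genes the median log2 fold change was 0.14 under 10 kb, 0.04 from 10 to 30 kb and -0.08 at 30 kb or more. The 55 members under 10 kb had a median of 0.05 with 3 lower in the paired fit, the 17 members from 10 to 30 kb also 0.05 with 2 lower and 1 higher, and the 6 longer ones -0.03 with 1 lower. Over all genes the paired fit called 122 of 5040 lower under 10 kb, 433 of 4650 from 10 to 30 kb and 758 of 5603 at 30 kb or more, so lower calls were more frequent among longer genes. It called 298, 339 and 196 genes of these classes higher, where 0, 1 and 0 members were. The 7.9% lower and 4.96% higher over all tested genes are therefore not matched to the members' lengths. Short members thus had a lower median than other short genes in these libraries, a difference for which no test was made.

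Summed over the 78 members, the controls held 2815, 2432 and 2722 CPM and the depleted libraries 2731, 2510.2 and 2656 CPM. These ranges overlap nearly whole (2657 ± 199.9 against 2632 ± 112 CPM, SD, n = 3 each). The log2 ratio of the sums was -0.01, and -0.07 with plain CPM in place of TMM. The large subunit sum was 1709.5 ± 161 and 1661 ± 89.3 CPM and the small subunit sum 941 ± 37.6 and 967 ± 22.3 CPM (SD, n = 3 each). Members took 0.235% to 0.285% of all reads of a library.

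Libraries numbered 2 were low for the family in both groups. Control replicate 2 was the lowest control for 56 members (71.8%; 42.5% of all genes), and depleted replicate 2 the lowest depleted library for 45 (57.7%; 38.4% of all genes). Within control libraries the coefficient of variation of a member ran from 1.13% to 51.0% with a median of 16.8%, and within depleted libraries from 0.100% to 66.3% with a median of 13.9%. The median SE of a member's log2 fold change was 0.221 unpaired and 0.151 paired. The 71 members that were not called in the paired fit included 68 with a paired log2 fold change within 0.5 of 0.

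Depth was 14336811 to 25916628 reads a library, and a member had 10 to 4957 reads in a library, with a median of 479. The 8 embryonic stem cell markers, Pou5f1 and Nanog among them, summed to 3619.8 to 4309 CPM. Marker sums were 2.49 to 8.94 CPM for fibroblast feeders (Col3a1, Lum and Postn at 0), 4.61 to 10.1 CPM for primitive endoderm, 23.1 to 34.6 CPM for neural cells and 2.32 to 6.36 CPM for mesoderm (T at 0). Of the primitive endoderm markers all 6 had reads, though Sox17 only in control replicate 3 (0.433 CPM). Their sums were 4.61 to 8.40 CPM in controls and 8.71 to 10.1 CPM after IAA, and 0 of the 5 tested were called in the paired fit. That fit called 1 of 8 stem cell markers lower and 1 higher, and 1 of 4 neural markers lower, beside 7.9% and 4.96% of all genes. Tdh, a stem cell marker, was at 293, 187 and 199 CPM in controls and 169, 136 and 134 CPM after IAA. The part of any cell type in the members' changes was not tested.

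Many of these genes lie head to head with another gene. Of the 69 members in RefSeq's promoter table, 27 (39.1%) had a gene on the opposite strand that starts less than 1000 bases from their own start, beside 20.5% of tested genes and 13.2% of all genes in that table. The distance between starts had a median of 128 bases. One such pair is of 2 members, Mrpl46 and Mrps11, whose starts are 42 bases apart on chromosome 7 and whose paired log2 fold changes were 0.33 and 0.50, neither called. Counting that pair once, 25 pairs had both genes tested.

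In 4 of them the neighbour fell in the paired fit, which called 7.9% of all tested genes lower, while the ribosomal gene was not called. Cyb5rl, a cytochrome b5 reductase-like gene 128 bases from Mrpl37, went from 4.60, 10.6 and 10.6 CPM to 2.19, 0.821 and 2.98 CPM (paired log2 -2.12, adjusted p = 0.00793). All of its depleted values lay under all of its controls, whereas Mrpl37 itself had a paired log2 fold change of 0.10 (adjusted p = 0.579). The RefSeq intervals of Cyb5rl and Mrpl37 overlap, as in some other head-to-head pairs, and reads of overlapping genes cannot be told apart here. Pnpla7, a lysophospholipase gene 935 bases from Mrpl41, was at 12.7, 11.8 and 12.5 CPM and then 3.93, 4.43 and 5.14 CPM. It was also called in the unpaired fit (log2 -1.46, adjusted p = 0.0464; paired adjusted p = 0.00178), while Mrpl41 had a paired log2 of -0.35 (adjusted p = 0.469).

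Ppp1r10, which encodes the phosphatase regulator PNUTS and starts 756 bases from Mrps18b, was at 217, 118 and 211 CPM and then 140, 85.5 and 134 CPM. It was lower in each pair, though its control replicate 2 lay under depleted replicates 1 and 3 (paired log2 -0.58, adjusted p = 0.0006), and Mrps18b had -0.12 (adjusted p = 0.447). Zfp661, a zinc finger gene 332 bases from Mrps5, was at 20.8, 20.4 and 13.8 CPM and then 11.3, 7.48 and 10.1 CPM. Its groups did not overlap (paired log2 -0.93, adjusted p = 0.0142), and Mrps5 had 0.05 (adjusted p = 0.782). The call of Cyb5rl was lost without pair 3 (0.0628), and that of Zfp661 without pair 1 (0.0527) or pair 2 (0.0965).

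In 1 pair the ribosomal gene fell and its neighbour was not called: Ptcd2, which encodes a pentatricopeptide protein of mitochondrial RNA processing and starts 108 bases from Mrps27, had a paired log2 fold change of -0.31 (adjusted p = 0.0997). In 0 pairs were both genes called. Whether the 2 genes of a pair differ in their response was not tested.

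**Figure D3:**
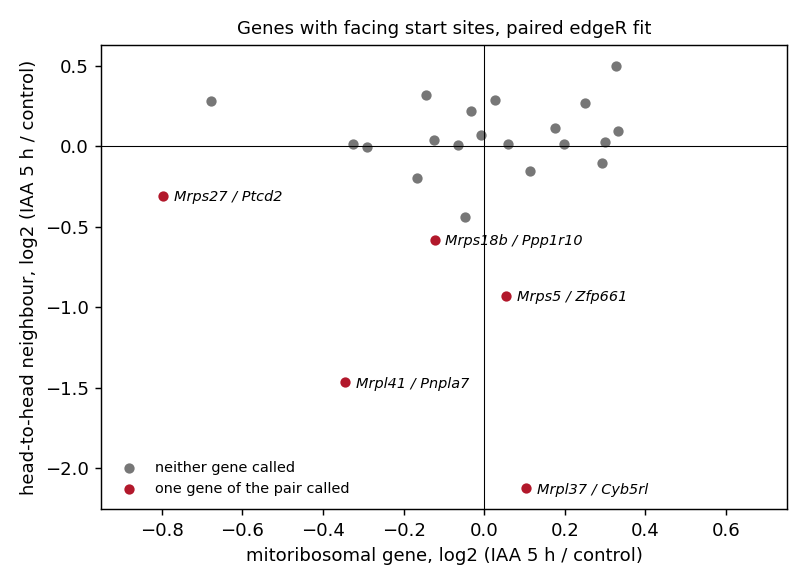
Paired edgeR log2 fold change (depleted over control) of mitochondrial ribosomal protein genes on the horizontal axis against that of the gene facing them head to head on the vertical axis, 1 point for each of 25 tested pairs, red where 1 gene was called. The 4 called neighbours lie between -2.12 and -0.58 on the vertical axis, while their ribosomal partners lie between -0.35 and 0.10.

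The promoter windows of the family, from 250 bases before to 50 after the start, were searched on both strands for the same motifs. The ETS motif was found in 26 of 69 members (37.7%), beside 19.5% of tested genes and 9.93% of all genes in the table. The NRF-1 motif was found in 16 (23.2%; 14.6% and 7.03%), and the YY1 motif in 12 (17.4%; 5.10% and 3.19%). The letters TATAAA were found in 5 (7.25%; 8.99% and 15.7%). At least 1 of ETS, NRF-1 and YY1 was present in 44 members (63.8%), beside 33.9% of tested genes. The members that fell had such a match in 4 of 6 cases and the others in 40 of 63. Head-to-head genes share part of their windows, and 9 members had no entry in the table: Mrpl4, Mrpl13, Mrpl15, Mrpl19, Mrpl38, Mrpl54, Mrps28, Mrps34 and Mrps35. A window with several motifs was counted under each of them.

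**Figure D4:**
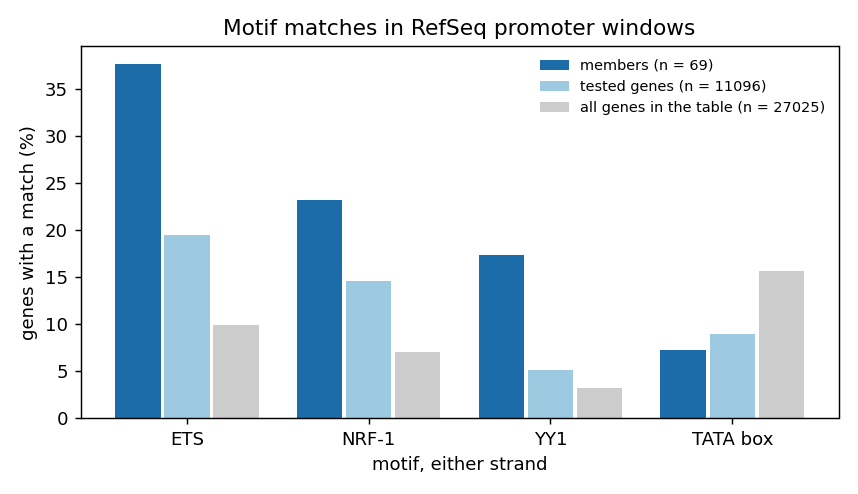
Share of genes (percent, vertical axis) with at least 1 match to each motif on either strand of the RefSeq promoter window, for the mitochondrial ribosomal protein genes, the tested genes and all genes of the table. The share was 37.7% for ETS in the members against 19.5% in tested genes, and for the TATA box 7.25% against 8.99%.

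The genes that work with these proteins were taken from lists of 5 ribosomal proteins with other symbols, 10 translation factors, 28 assembly factors, 12 regulators of mitochondrial biogenesis and the 2 mitochondrial rRNAs. In the unpaired fit 0 of the 56 tested were called. In the paired fit 7 fell and 5 rose, where 7.9% and 4.96% of all tested genes did, and DESeq2 without the block called 5, where its shares were 3.29% lower and 0.353% higher. These lists are short, and nothing particular to them is read from the counts. Ppargc1a, a coactivator of mitochondrial biogenesis, was listed at 0 in each library.

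Among translation factors, 1 of 10 fell and 0 rose. Mtif2, the initiation factor that places the initiator tRNA, was at 51.9, 55.6 and 47.7 CPM in controls and 23.5, 28.3 and 35.3 CPM after IAA, with a gap between the groups (paired log2 -0.85 ± 0.15, SE, adjusted p = 0.00253; unpaired adjusted p = 0.108).

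Among assembly factors, 6 of 28 fell and 1 rose, in the fit that called 7.9% of all genes lower and 4.96% higher. Tfb1m, which dimethylates the rRNA of the small subunit, was at 19.7, 19.8 and 18.9 CPM and then 9.73, 10.2 and 8.46 CPM, close within each group and 2.06-fold apart (paired log2 -1.04 ± 0.18, SE, adjusted p = 0.00274; unpaired adjusted p = 0.0708). Mettl15, which methylates the same rRNA, was at 6.96, 8.08 and 5.80 CPM and then 2.54, 2.97 and 1.96 CPM (paired log2 -1.48 ± 0.31, adjusted p = 0.00823). Its span of 189 kb is the longest of the 12 called partner genes. Ybey, an endonuclease tied to the small subunit, had -0.76 ± 0.20 (adjusted p = 0.0252).

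On the side of the large subunit, the GTPase genes Gtpbp10 and Mtg2 fell, with paired log2 fold changes of -0.75 ± 0.09 (SE, adjusted p = 0.000285) and -0.66 ± 0.14 (adjusted p = 0.00955). Rcc1l, of the rRNA pseudouridylation module, had -0.81 ± 0.20 (adjusted p = 0.0201). Each of the 6 that fell had all depleted libraries below all controls, as 11.8% of all tested genes did. The same contrast chose these 6, so this is a description only. Mterf4, which guides an rRNA methyltransferase, rose by 0.49 ± 0.12 (adjusted p = 0.0209), with overlapping groups.

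Gadd45gip1, a protein at the tunnel exit of the large subunit, was the 1 of 5 with other symbols that rose, by 0.38 ± 0.10 (paired log2, SE, adjusted p = 0.0294). Of 11 regulators tested, 3 rose and 0 fell, beside 4.96% and 7.9% of all genes. Pprc1, a coactivator of the PGC-1 family, was at 454, 373 and 487 CPM and then 582, 498 and 664 CPM (paired log2 0.41 ± 0.07, SE, adjusted p = 0.00195), all depleted libraries above all controls. Myc, a transcription factor with many mitochondrial genes among its targets, was at 71.4, 52.7 and 70.3 CPM and then 113, 77.2 and 84.1 CPM, also without overlap (0.49 ± 0.10, adjusted p = 0.00782). Gabpa, the DNA-binding subunit of NRF-2, had 0.25 ± 0.07 (adjusted p = 0.0384). Neither mitochondrial rRNA was called over all pairs. The rRNA of the small subunit, mt-Rnr1, was at 276, 444 and 202 CPM and then 375, 157 and 251 CPM, and that of the large subunit, mt-Rnr2, at 1564, 2143 and 1431 CPM and then 2141, 1022 and 1930.2 CPM. Both were lower in pair 2 and higher in pairs 1 and 3, and both were called in the paired fit without pair 2 (adjusted p = 0.0153 and 0.00442).

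Of the 12 partner genes called with the block, 7 were called without pair 1 and 5 without pair 3. Calls over all tested genes went from 2259 to 1418 and 949 in these runs. Mtif2, Gtpbp10, Tfb1m and Pprc1 were called without any 1 pair, and the others lost the call without at least 1.

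**Figure D5:**
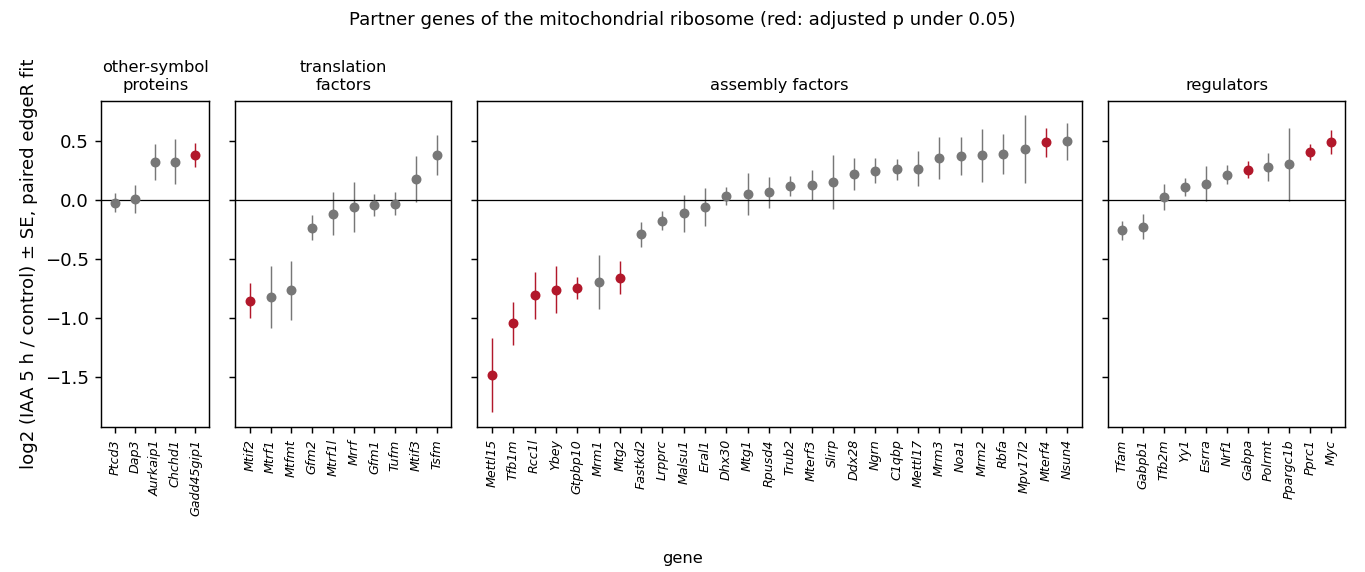
Paired edgeR log2 fold change (depleted over control, bars 1 SE) of genes that work with the mitochondrial ribosome, in 4 lists along the horizontal axis, red where the adjusted p was under 0.05. The red genes that fell are Mtif2 and 6 assembly factors, between -1.48 and -0.66, and the red genes that rose lie between 0.25 and 0.49.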

How the data were processed

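The deposited table holds estimated counts of reads per gene for 6 libraries, already whole numbers. The submitters' processing notes list StringTie 2.2.1, HISAT2 2.2.1, DESeq2 1.42.0 and mm10 without their roles. Pulse length, strand and spike-in use were not given in the sources used here, so antisense and overlapping genes cannot be told apart. From these counts, edgeR 4.0.16 (R 4.3.3, filterByExpr, TMM, robust quasi-likelihood test) was run over all genes, with DESeq2 1.42.0 as an alternative. The edgeR code was also run on simulated counts. These had the same spread for every gene, no effect of replicate number, and larger changes than those of the called members. That run therefore does not bear on the paired calls. Replicate numbers were used as a block because same-numbered libraries had correlated deviations from their group means (0.268, 0.387 and 0.321; -0.265 to -0.025 for other numbers). The p-values reflect only how these libraries vary. The labels of a library were not checked by Zfp207 counts, since the degron acts on the protein.

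Members and lists were chosen with earlier results of these data known. Named genes were the members called in either fit, the 3 highest and 3 lowest unpaired fold changes, the 3 highest mean levels, head-to-head pairs with a called gene, and called partner genes. Subunit and family were assigned from general knowledge. Promoters and coordinates are RefSeq's of GRCm38.p6, matched by symbol.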

Additional observations from a re-analysis of the deposited data

How the results depend on the processing

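With the replicate block 6 members were called lower and 1 higher, with DESeq2 5 lower without the block, and 6 lower and 1 higher with it, where the unpaired fit had 0 and 0. With libraries or pairs left out, calls ran from 0 to 6 lower and from 0 to 1 higher; with 1 library left out the unpaired fit called at most 1 gene of all those tested. The members' median log2 fold change ran from -0.05 to 0.09 over these. Scaling by relative log expression and no filter on low counts also left 0 members called. Partner genes called were 0 unpaired, 12 with the replicate block, 5 and 13 with DESeq2 without and with it, 0 with 1 library left out, and 7, 14 and 5 with the block and without replicate pair 1, 2 or 3. Calls over all tested genes were 139 unpaired, 2259 with the block, and 641 and 2538 with DESeq2 without and with it. With the block and without pair 1, 2 or 3 they were 1418, 1428 and 949. The alternatives for partner genes beyond the block were chosen after seeing the data. Mrpl53 had a log2 fold change of 0.03 without replicate pair 3, in a range of -1.44 to 0.03 over libraries and pairs left out. The summed level had a log2 ratio of -0.072 in plain CPM, against -0.013. The ETS share was 21.7% on the coding strand alone, where that of tested genes went from 19.5% to 10.9% and that of all genes from 9.93% to 5.40%. For the named members, the other results kept direction under all alternatives, 188 of them on the same side of the threshold and 36 past it where the unpaired fit was not. Low counts limit Mrpl53 and Mrpl54.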
